A study of Mus musculus with 136 samples.

Results

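The enzymes of the polyol pathway, of fructose use and of hexosamine synthesis were examined in mouse embryos and yolk sacs from normal and diabetic pregnancies. The set was defined by 9 symbols, all of which were found among the 47643 genes of the count table: Akr1b3, Akr1a1, Sord and Khk on the polyol side, and Gfpt1, Gnpnat1, Pgm3, Uap1 and Ogt on the hexosamine side. The rule names the genes by symbol and uses no measured value, but the set was chosen with earlier results of these data known. All mice were of the NOD (non-obese diabetic) strain, whose females can develop diabetes without treatment, and normal and diabetic dams thus share the strain and normoglycemic NOD sires. Dams were sacrificed at gestation day 8.5, when blood glucose was 105 to 164 mg/dl in 10 normal dams and 423 to 595 mg/dl in 11 diabetic dams, with 1 further diabetic dam above the 600 mg/dl scale of the meter. From each of 66 concepti the embryo and its yolk sac were sequenced separately, with 17 normal and 17 diabetic concepti at 5 or 6 somite pairs (10 and 9 litters) and 16 normal and 16 diabetic concepti at 7 to 9 somite pairs (7 and 6 litters). Diabetes in this strain is autoimmune, so hyperglycemia and autoimmunity cannot be told apart in the diabetic group. A single litter contributed 7 of the 16 diabetic concepti at 7 to 9 somite pairs.

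Excess glucose can leave glycolysis by either route. In the polyol pathway aldose reductase (Akr1b3) reduces glucose to sorbitol, the related aldehyde reductase (Akr1a1) reduces a wider range of aldehydes, sorbitol dehydrogenase (Sord) oxidizes sorbitol to fructose, and ketohexokinase (Khk) phosphorylates fructose. In the hexosamine pathway glutamine-fructose-6-phosphate transaminase (Gfpt1) carries out the rate-limiting step, glucosamine-phosphate N-acetyltransferase (Gnpnat1), phosphoacetylglucosamine mutase (Pgm3) and UDP-N-acetylglucosamine pyrophosphorylase (Uap1) complete UDP-GlcNAc, and the X-linked O-GlcNAc transferase (Ogt) attaches the sugar to serine and threonine residues of nuclear and cytoplasmic proteins. The visceral endoderm of the yolk sac takes up and processes maternal nutrients before the placenta is established.

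The counted fragments were 3′ ends marked with unique molecular identifiers (UMIs), so that each transcript contributes 1 tag and levels of different genes were compared without division by length. Totals were 1017901 to 5757211 UMI counts per library (median 2337159). Levels are given as normalized counts, the UMI count divided by the DESeq2 size factor of the library among libraries of the same tissue and stage, or as CPM (counts scaled to a common library total) where tissues were compared. A difference was called where the adjusted p of edgeR's quasi-likelihood test, corrected by Benjamini-Hochberg over all genes tested, was under 0.05. Tissue labels were checked with marker genes. The 8 markers of the embryo proper, such as Sox2 and Otx2, summed to 343 to 782 CPM in embryo libraries and to 1.45 to 43.1 CPM in yolk sac libraries, and the 10 visceral endoderm markers, such as Afp, Ttr and Apoa1, summed to 41.3 to 1466 CPM in embryo and 4606 to 21551 CPM in yolk sac libraries. Of decidua markers, mean Prl8a2 was 1.57 CPM in normal and 20.3 CPM in diabetic yolk sacs at 5 or 6 somite pairs. At 7 to 9 it was 2.50 and 32.8 CPM. Mean Dcn was 7.03 and 7.08 CPM, then 12.8 and 14.6 CPM. Trophoblast Ascl2 was 18.1 and 35.3 CPM, then 7.72 and 6.72 CPM. No marker of either list was called between conditions in yolk sacs, and carry-over of such tissue was not tested. In RNA from whole tissues, fewer cells of a type and less RNA per cell cannot be told apart. Littermates share a dam, so p-values over concepti measure a spread that is in part shared within litters, and the called differences were fitted again with counts summed per litter and, except between tissues, with litter as a random block. Sums were made per litter within each stage and tissue, and some litters had concepti at both stages. Between stages the 22 litters thus gave 32 sums per tissue. Between tissues, 19 and 13 litters gave 38 and 26 sums at the 2 stages. The fits of sums took these as independent and did not pair sums of the same litter.

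The genes lie on 8 chromosomes in build GRCm38: Akr1b3 at chr6:34302434-34317478 (minus strand), Akr1a1 at chr4:116636510-116651680 (minus), Sord at chr2:122234749-122265340 (plus), Khk at chr5:30921431-30931248 (plus), Gfpt1 at chr6:87042846-87092197 (plus), Gnpnat1 at chr14:45376334-45404913 (minus), Pgm3 at chr9:86554377-86571842 (minus), Uap1 at chr1:170141938-170174957 (minus) and Ogt at chrX:101640060-101684351 (plus). Some counts are uncertain by position or sequence. The 3′ end of Akr1b3 shares at least 91.1% identity over 398 to 500 bases with 7 other annotated genes, of which Gm38056 had a mean of 0.394 counts per library and the other 6 had none. Identity was 100% with Gm6644 over 398 bases and 99.6% with Gm38056 over 500. If reads that match several genes were left uncounted, Akr1b3 is undercounted, and low counts of the copies do not bound that loss. Gnpnat1 overlaps Styx on the opposite strand (mean 0.894 counts) and has a near-identical copy in Gm14698 (mean 0.311 counts), so the same limit applies to it. Pgm3 overlaps Dop1a on the opposite strand (mean 44.8 counts), and reads of this pair could be assigned to either gene, or left uncounted, if strand was not used in counting.

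The RefSeq promoter windows (250 bases before to 50 after an annotated start, GRCm38.p6) were read for 7 of the 9 genes. The windows of 5 genes are printed here because their genes carry the patterns described next, namely the widest tissue difference (Sord), a difference between embryos of normal and diabetic dams (Khk), and correlation across libraries between Uap1 and each of Gfpt1 and Pgm3. Gfpt1 and Pgm3 correlated less with each other (Pearson r = 0.42 in embryos and 0.19 in yolk sacs). Gnpnat1, the enzyme most correlated with Uap1, had no window among those read. Akr1a1, called between conditions in embryos at both stages, had a window that was read but is not printed. It held none of the letters searched, so the printed windows do not cover every gene called between conditions. Capitals mark the letters of an E-box (CACGTG) or of a CCAAT box (CCAAT, or ATTGG where it lies on the other strand), each printed 5′ to 3′ on the strand of the gene. The windows are chr2:122234589-122234888 (plus) for Sord, chr5:30921309-30921608 (plus) for Khk, chr6:87042596-87042895 (plus) for Gfpt1, chr9:86571793-86572092 (minus) for Pgm3 and chr1:170174915-170175214 (minus) for Uap1.
Sord: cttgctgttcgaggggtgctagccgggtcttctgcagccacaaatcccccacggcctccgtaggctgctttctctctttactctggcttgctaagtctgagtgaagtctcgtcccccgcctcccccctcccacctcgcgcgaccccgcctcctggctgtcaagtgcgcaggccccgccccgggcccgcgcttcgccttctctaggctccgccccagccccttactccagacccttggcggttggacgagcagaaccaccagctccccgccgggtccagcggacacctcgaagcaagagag
Khk: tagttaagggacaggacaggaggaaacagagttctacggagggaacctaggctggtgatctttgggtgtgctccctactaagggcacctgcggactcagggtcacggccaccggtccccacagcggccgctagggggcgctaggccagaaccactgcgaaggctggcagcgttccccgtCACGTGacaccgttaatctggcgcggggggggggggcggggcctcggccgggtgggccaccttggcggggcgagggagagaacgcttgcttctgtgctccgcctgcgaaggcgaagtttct
Gfpt1: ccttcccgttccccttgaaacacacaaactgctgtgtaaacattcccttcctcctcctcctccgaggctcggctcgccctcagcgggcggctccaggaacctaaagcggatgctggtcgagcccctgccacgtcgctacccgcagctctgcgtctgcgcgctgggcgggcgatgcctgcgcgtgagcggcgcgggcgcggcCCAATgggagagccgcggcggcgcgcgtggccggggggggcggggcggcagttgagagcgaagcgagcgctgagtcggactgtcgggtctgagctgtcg
Pgm3: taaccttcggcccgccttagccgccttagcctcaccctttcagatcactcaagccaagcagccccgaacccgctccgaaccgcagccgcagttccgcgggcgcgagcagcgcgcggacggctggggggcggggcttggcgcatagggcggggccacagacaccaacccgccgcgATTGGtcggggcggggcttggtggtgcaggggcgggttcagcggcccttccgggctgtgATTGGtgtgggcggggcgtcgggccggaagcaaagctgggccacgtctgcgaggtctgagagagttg
Uap1: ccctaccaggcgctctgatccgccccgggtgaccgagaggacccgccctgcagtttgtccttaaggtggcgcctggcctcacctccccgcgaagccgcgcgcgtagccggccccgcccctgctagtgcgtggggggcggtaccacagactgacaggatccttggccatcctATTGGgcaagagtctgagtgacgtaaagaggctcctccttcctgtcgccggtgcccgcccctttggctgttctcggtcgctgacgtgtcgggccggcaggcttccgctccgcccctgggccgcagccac
Searched on both strands, the E-box letters occur in 7.17% of all 32544 promoter windows and, among these genes, in Khk, starting at position -71 from the annotated start. The CCAAT letters occur in 37.4% of all windows and, among these genes, in Gfpt1 at -49, in Uap1 at -79 and in Pgm3 at -76 and again at -17. Letters for a GATA site (AGATAA, in 11.2% of all windows), an HNF1 site (0.403%), an HNF4 direct repeat (CAAAGNCCA, 1.99%) and a cyclic AMP response element (TGACGTCA, 1.80%) were not in the windows of the 7 genes. The share of G and C was 66.7% in Sord, 65.7% in Khk, 70.3% in Gfpt1, 70.3% in Pgm3 and 69.0% in Uap1. The median over all 32544 windows was 53%. In the windows read but not printed it was 50% for Akr1a1 and 51% and 48.3% for Ogt.

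Akr1a1 was the most abundant of the 9 transcripts in both tissues at both stages. In embryos at 5 or 6 somite pairs, over 34 libraries of both conditions, the mean normalized count was 1095 for Akr1a1, 423 for Ogt, 267 for Gfpt1, 219 for Uap1, 84.996 for Gnpnat1, 76.9 for Pgm3, 21.1 for Khk, 15.6 for Akr1b3 and 13.1 for Sord. As counted, hexosamine transcripts thus outnumbered those of the polyol reductase, dehydrogenase and ketohexokinase, with Akr1a1 above all of them. Neighbours in this order were compared by a two-sided exact sign-flip test over litter means, adjusted over 32 neighbouring pairs of the 4 tissue and stage sets, and 25 of the 32 passed 0.05. In this set every neighbouring pair passed except Gnpnat1 and Pgm3 (adjusted exact p = 0.168, 19 litters). At 7 to 9 somite pairs the embryo order became Akr1a1 (977), Ogt (265), Gfpt1 (252), Uap1 (138), Pgm3 (61.0), Gnpnat1 (57.3), Akr1b3 (14.5), Sord (13.95) and Khk (13.3), all as mean normalized counts over 32 libraries. Here Ogt and Gfpt1 were not separated (adjusted exact p = 0.477, 13 litters), nor were Pgm3 and Gnpnat1 (0.324), Akr1b3 and Sord (0.885) or Sord and Khk (0.690).

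In the yolk sac, Gfpt1 held the second place and Sord stood with the hexosamine genes. At 5 or 6 somite pairs the mean normalized counts over 34 libraries were 1066 for Akr1a1, 343 for Gfpt1, 250.6 for Ogt, 211 for Sord, 191 for Pgm3, 179.7 for Uap1, 148 for Gnpnat1, 26.5 for Khk and 4.71 for Akr1b3. Sord was not separated from Pgm3 (adjusted exact p = 0.200, 19 litters), nor Pgm3 from Uap1 (0.0878). At 7 to 9 somite pairs they were 1048 for Akr1a1, 385 for Gfpt1, 304 for Sord, 201 for Pgm3, 175 for Ogt, 139.8 for Uap1, 116 for Gnpnat1, 24.3 for Khk and 5.24 for Akr1b3, with all 8 neighbouring pairs past the threshold (adjusted exact p at most 0.0444, 13 litters). Akr1b3, which encodes the enzyme that opens the polyol pathway, was thus detected at only 0 to 17 UMI counts per yolk sac library and did not pass the filter on low counts in the comparisons within that tissue. Reads shared with its near-identical copies may be missing from these counts.

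**Figure D1:**
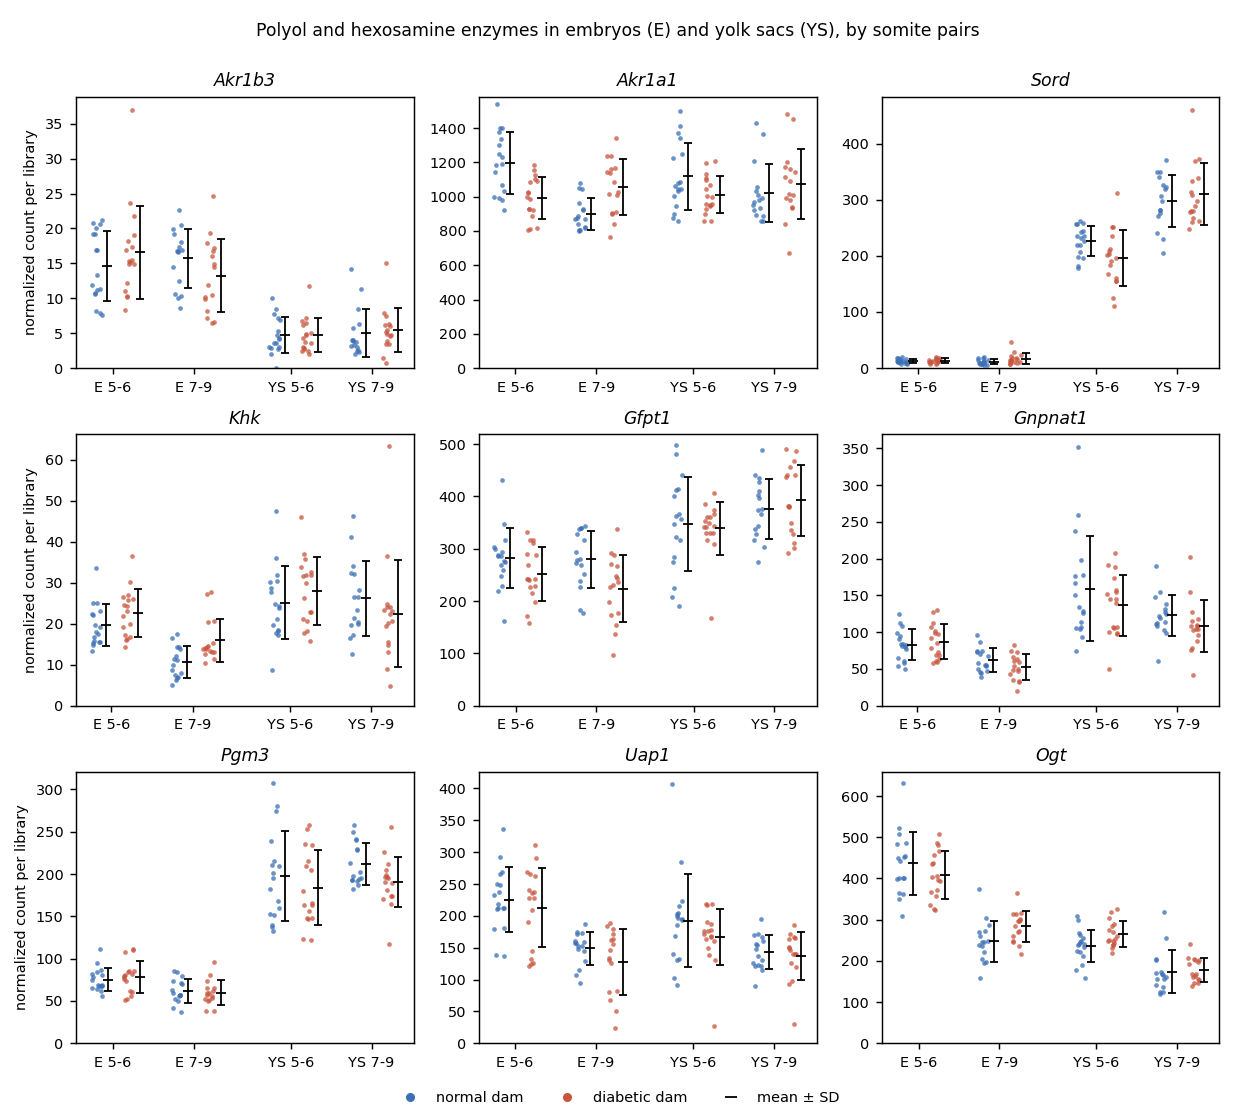
Normalized counts of the 9 enzymes in every library (points), by tissue and somite pairs on the horizontal axis and by maternal condition (blue normal, red diabetic), with mean ± SD as black bars; size factors were computed within each tissue and stage, so levels are comparable within, not between, those sets. Akr1a1 embryos from diabetic dams sit at 807 to 1182 against 921 to 1539 at 5 or 6 somite pairs, and at 763 to 1342 against 802 to 1079 at 7 to 9.

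Spread between libraries was widest for scarce transcripts, but not wide in these alone. Within the groups of tissue, stage and condition, the coefficient of variation was 10.3% to 19.0% for Akr1a1 and 11.7% to 29.9% for Ogt, whereas it was 25.8% to 58.3% for Khk and 26.7% to 68.8% for Akr1b3. Counting error is part of the latter figures, as Khk was counted 6 to 44 times per embryo library and Akr1b3 5 to 31 times. Gnpnat1 reached 44.6% in normal yolk sacs at 5 or 6 somite pairs, at a mean normalized count of 159. Uap1 reached 40.3% in diabetic embryos at 7 to 9, at a mean of 128.

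The first comparison was between the tissues of the same concepti, and the strongest contrast was in the second enzyme of the polyol pathway. Sord was higher in the yolk sac than in the embryo in 34 of 34 concepti at 5 or 6 somite pairs and in 32 of 32 at 7 to 9. At the earlier stage Sord was 2.62 to 7.67 CPM in embryos (median 4.53) and 50.3 to 151 CPM in yolk sacs (median 98.7), a 20.3-fold ratio of the means. At the later stage the range was 2.59 to 20.6 CPM in embryos (median 5.11) and 99.2 to 189 CPM in yolk sacs (median 146), a 23.4-fold ratio. The ranges of the tissues did not overlap at either stage, and the share of all genes without overlap was not computed. The fitted log2 difference was 4.35 (SE 0.0896, edgeR adjusted p = 2.65e-53) and 4.56 (SE 0.110, adjusted p = 1.04e-47). Differences between these tissues were common, with 79.2% of 11677 genes called at 5 or 6 somite pairs and 81.3% of 11577 genes at 7 to 9. Genes higher in the yolk sac made up 39.4% and 38.7%, and genes lower there 39.8% and 42.6%. Of the 9 enzymes 6 were higher, 2 were lower and 1 was not called at both stages, so a call alone does not set these genes apart. With counts summed per litter the same 8 enzymes were called at both stages, in the same directions, with the highest edgeR adjusted p at 6.88e-04 (Akr1a1 at the later stage).

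The enzymes that complete UDP-GlcNAc were higher in the yolk sac as well, with the exception of Uap1. Pgm3 was 18.4 to 42.7 CPM in embryos (median 28.2) and 53.4 to 133 CPM in yolk sacs (median 84.3) at 5 or 6 somite pairs, and 16.6 to 42.7 CPM and 48.1 to 128 CPM at 7 to 9. For this mutase too the ranges did not overlap, again without a share over all genes to set beside it. The log2 difference of Pgm3 was 1.67 (SE 0.0815, edgeR adjusted p = 1.51e-30) and 1.83 (SE 0.0709, adjusted p = 8.31e-36). Gnpnat1, the acetyltransferase, was higher in yolk sac by a log2 difference of 1.14 (SE 0.110) and 1.12 (SE 0.0992), in 34 of 34 and 31 of 32 concepti. Gfpt1, the entry enzyme, was higher by 0.72 at both stages (SE 0.0755 and 0.0790), in 31 of 34 and 32 of 32 concepti. Uap1, which makes UDP-GlcNAc itself, was 80.9 ± 20.99 CPM in embryos and 82.9 ± 26.4 CPM in yolk sacs at the earlier stage (SD, n = 34), and 61.6 ± 18.2 and 67.6 ± 16.3 CPM at the later one (SD, n = 32). Its log2 difference of 0.06 (95% interval -0.15 to 0.28, edgeR adjusted p = 0.605) and 0.13 (interval -0.09 to 0.35, adjusted p = 0.269) did not pass the test.

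A pair of enzymes at opposite ends of these routes were lower in the yolk sac. Ogt, the transferase that uses UDP-GlcNAc, was 156 ± 25.3 CPM in embryos and 116 ± 18.1 CPM in yolk sacs at 5 or 6 somite pairs (SD, n = 34), and 118 ± 20.9 and 84.3 ± 19.2 CPM at 7 to 9 (SD, n = 32). It was higher in the yolk sac of only 1 conceptus at each stage, with a log2 difference of -0.40 (SE 0.0561) and -0.49 (SE 0.0695). Akr1b3, the aldose reductase, was 5.72 ± 2.05 CPM in embryos and 2.17 ± 1.11 CPM in yolk sacs at the earlier stage (SD, n = 34), with a log2 difference of -1.37 (SE 0.153, edgeR adjusted p = 7.11e-13) and again -1.37 (SE 0.158) at the later. Khk was higher in the yolk sac by a log2 difference of 0.67 (SE 0.103) and 0.96 (SE 0.136), in 29 of 34 and 28 of 32 concepti. Akr1a1 was higher by 0.32 (SE 0.0530) and 0.21 (SE 0.0576), in 30 of 34 and 25 of 32 concepti. The Akr1a1 difference at 7 to 9 somite pairs was 0.08 (adjusted p = 0.176) on total counts without TMM factors, within a range of 0.08 to 0.26 and of adjusted p from 2.80e-04 to 0.176 over 6 alternatives.

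**Figure D2:**
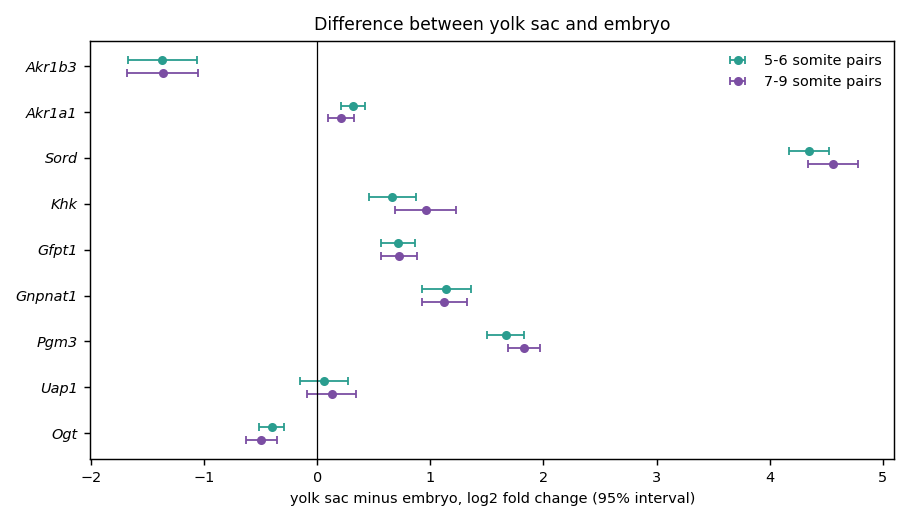
Log2 fold change of yolk sac minus embryo (horizontal axis, points with 95% intervals) for each enzyme, at 5 or 6 somite pairs (teal) and 7 to 9 (purple). Sord lies at 4.35 and 4.56, Pgm3 at 1.67 and 1.83, Uap1 has intervals that include 0, and Ogt and Akr1b3 lie below 0.

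Sord in embryo libraries was set beside their visceral endoderm signal. Mean Sord in embryos was 4.92% of the yolk sac mean at 5 or 6 somite pairs and 4.27% at 7 to 9, where the 10 visceral endoderm markers were at 1.53% to 4.76% (median 2.74%) and 1.28% to 3.26% (median 1.98%), so that Sord lay above the range of the markers at both stages. Across embryos, Sord correlated with the mean log2 level of these markers (Pearson r = 0.43 over 34 embryos and 0.53 over 32 embryos, which share library depth, as a description without a test). At 7 to 9 somite pairs the corresponding r was 0.43 for Akr1a1 and 0.32 for Khk, and it was negative for Gfpt1 (-0.36), Uap1 (-0.35), Akr1b3 (-0.32) and Gnpnat1 (-0.24). For the other enzymes the embryo mean was at least 28.01% of the yolk sac mean, the value of Pgm3 at 7 to 9 somite pairs. The part of visceral endoderm RNA in the embryo Sord counts was not tested.

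Genes next to the enzymes in the same routes were read from fixed lists. Of 12 hexosamine neighbours, 11 were higher in the yolk sac at both stages and none was lower, with a median log2 difference of 1.28 and 1.30 beside -0.00 and -0.04 over all genes tested. Among them Gnpda1, a deaminase that returns glucosamine 6-phosphate to fructose 6-phosphate, differed by 3.22 and 3.49, Uap1l1, a relative of Uap1, by 2.69 and 2.83, and Renbp, an epimerase of N-acetylglucosamine, by 2.64 and 2.80. Of the polyol and fructose neighbours tested, 4 were higher and 3 lower at both stages (8 and 9 tested). The glycerate kinase Glyctk was higher by 3.95 and 4.86, while Aldoc was lower by a log2 difference of -2.24 and -3.24. Of genes from glucose entry to fructose 6-phosphate, 2 were higher and 4 lower at 5 or 6 somite pairs, and 1 higher and 4 lower at 7 to 9 (7 tested), with the hexokinase-like Hkdc1 at 3.62 and 3.68, Hk2 at -1.17 and -1.57 and the phosphofructokinase Pfkl at -1.31 and -1.39. Of 17 tested users of UDP-GlcNAc, 10 were higher at both stages and 4 and 3 were lower. The hyaluronan synthase Has2 was lower by -2.92 and -3.37, and Gcnt2 was higher by 1.51 and 1.47. Mgea5, the O-GlcNAcase that opposes Ogt, was lower in the yolk sac by -0.36 and -0.43, the same direction as Ogt. With counts summed per litter, 35 of the 39 called list genes were called again at 5 or 6 somite pairs and 37 of 37 at 7 to 9.

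The second comparison was between stages. Ogt fell in both tissues between 5 or 6 and 7 to 9 somite pairs. With size factors over all libraries of a tissue, mean Ogt in embryos was 380 ± 65.5 at 5 somite pairs (SD, n = 24), 400.1 ± 57.8 at 6 (n = 10), 271 ± 54.6 at 7 (n = 11), 310.4 ± 45.3 at 8 (n = 13) and 293 ± 53.4 at 9 (n = 8). In yolk sacs the corresponding means were 248 ± 35.9, 241 ± 40.0, 182 ± 33.5, 176 ± 49.3 and 181 ± 44.3. In both tissues the means at 5 and 6 somite pairs lay above the means at 7, 8 and 9. The log2 difference between stages was -0.40 in embryos (SE 0.0592, edgeR adjusted p = 3.77e-07) and -0.44 in yolk sacs (SE 0.0660, adjusted p = 2.12e-07). With counts summed per litter it was -0.42 in both tissues (adjusted p = 9.07e-04 and 1.44e-04).

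In embryos 4 of the 9 enzymes were called between stages, all lower at 7 to 9 somite pairs, where 30.8% of 11304 genes were called and 15.8% were lower. Besides Ogt these were Khk (log2 difference -0.44, SE 0.105, edgeR adjusted p = 8.90e-04), Uap1 (-0.39, SE 0.109, adjusted p = 0.00429) and Gnpnat1 (-0.30, SE 0.0977, adjusted p = 0.0157). All 4 were called with litter as a random block. When counts were summed per litter, Khk (adjusted p = 0.00825) and Uap1 (0.0424) were called and Gnpnat1 (-0.25, adjusted p = 0.189) was not. Mean Uap1 in embryos was 204 ± 51.0 at 5 somite pairs and 136 ± 53.9 at 7 (SD, n = 24 and 11), and mean Khk was 19.4 ± 5.27 and 14.3 ± 6.82. Sord was higher at the later stage by 0.34 without passing the test (adjusted p = 0.0508), as was Gfpt1 by 0.18 (adjusted p = 0.0764) and Akr1a1 by 0.11 (adjusted p = 0.0865). In embryos of diabetic litters alone the Khk difference was -0.23 (adjusted p = 0.240) and that of Gnpnat1 -0.44, and in normal litters alone -0.65 and -0.16 (adjusted p for Gnpnat1 0.400), within ranges of adjusted p from 5.27e-04 to 0.240 for Khk and 0.0109 to 0.400 for Gnpnat1 over 9 alternatives.

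In yolk sacs, Sord and Gfpt1 rose with stage, against 40% of 10857 genes called. Sord was 199.9 ± 42.7 at 5 somite pairs, 224 ± 34.8 at 6, 309.9 ± 64.3 at 7, 295 ± 46.4 at 8 and 336 ± 35.2 at 9 (normalized counts, SD, n = 24, 10, 11, 13 and 8). The log2 difference of Sord was 0.60 (SE 0.0666, edgeR adjusted p = 6.23e-11) and that of Gfpt1 0.24 (SE 0.0717, adjusted p = 0.00500). The Gfpt1 call was kept in 7 of 9 alternatives (adjusted p 0.00517 to 0.334). With counts summed per litter Sord was at 0.58 (adjusted p = 1.48e-05) and Gfpt1 at 0.21 (adjusted p = 0.0818). Of the 10 visceral endoderm markers, 8 also rose with stage in the yolk sac and 1 fell, with a median log2 difference of 0.59, close to that of Sord. Their part in the Sord difference was not tested. Uap1 was lower by -0.27 (SE 0.109, adjusted p = 0.0412), a call that was kept in 2 of 9 alternatives (adjusted p 0.0197 to 0.318) and in neither litter-level fit. Gnpnat1 at -0.26 (adjusted p = 0.0541), Pgm3 at 0.16 (0.0827), Khk at -0.09 (0.593) and Akr1a1 at 0.05 (0.500) did not pass. No enzyme passed the test of a stage difference that was itself unequal between tissues, in which 3.23% of 12183 genes were called (1.74% higher, 1.49% lower), and the smallest adjusted p was 0.273 (Pgm3, 0.22 higher in the yolk sac).

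**Figure D3:**
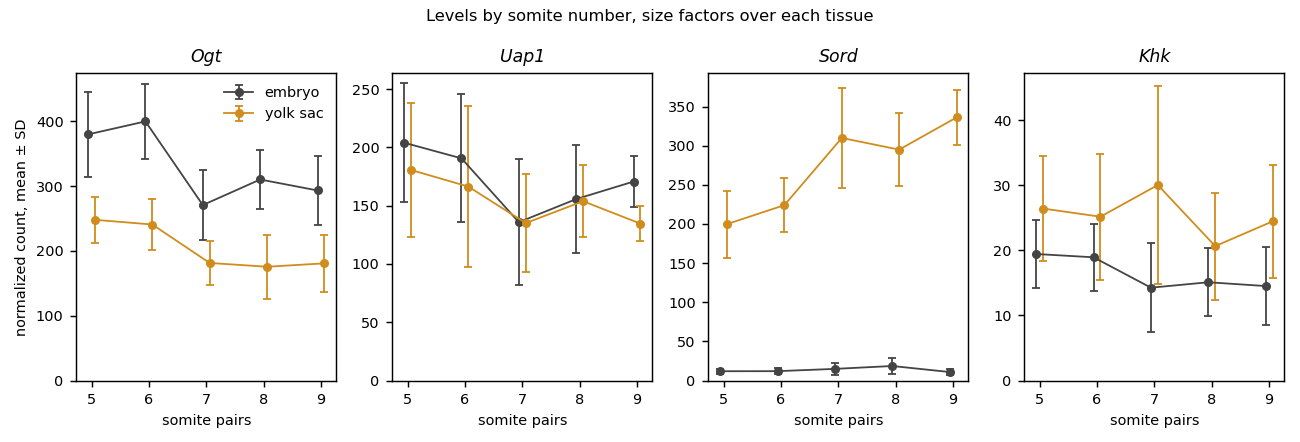
Mean normalized counts with SD (vertical axis) of Ogt, Uap1, Sord and Khk by somite pairs (horizontal axis) in embryos (grey) and yolk sacs (ochre), both conditions together and size factors over all libraries of a tissue. Ogt is lower from 7 somite pairs on in both tissues, and Sord means rise from 199.9 to 336 in the yolk sac while embryo means stay between 10.9 and 18.6.

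Counts of called route neighbours are read against 30.8% of all genes called in embryos (15% higher, 15.8% lower) and 40% in yolk sacs (21.7% higher, 18.3% lower). In embryos, 2 of 7 polyol and fructose neighbours rose and 1 fell with stage, with Tkfc, which phosphorylates glyceraldehyde, at 0.36 and Aldoa at 0.17. In yolk sacs 6 of 9 rose and 2 fell, led by Aldoc at -1.12, Glyctk at 0.72 and Tkfc at 0.71. Of 17 users of UDP-GlcNAc tested in embryos 1 rose and 6 fell (Mgat2 -0.34, Extl2 -0.33, Has2 -0.28), and of 16 tested in yolk sacs 2 rose and 5 fell (Ext1 0.54, Mgat4b -0.40, Mgat2 -0.36). Of hexosamine neighbours, 1 of 11 rose in embryos (Renbp, 0.45) and 3 of 12 rose and 1 fell in yolk sacs (Renbp 0.66, Amdhd2 0.37, Gnpda1 -0.40). Pfkl was the 1 gene of glucose entry that was called higher in both tissues, by 0.34 and 0.31. Gpi1 rose by 0.28 in embryos, and Hk2 fell by 0.30 and Pfkp by 0.29 on the log2 scale in yolk sacs. Of the 13 list genes called in embryos, 12 were called again under the litter block and 5 when counts were summed by litter, and of the 23 in yolk sacs 22 and 16.

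The central comparison was between normal and diabetic pregnancies. In embryos at 5 or 6 somite pairs, Akr1a1 was 921 to 1539 normalized counts in the normal group (median 1190.4) and 807 to 1182 in the diabetic group (median 1001). None of the 17 diabetic embryos lay above the normal median, 10 of the 17 normal embryos lay above the highest diabetic one, and the ranges overlapped between 921 and 1182. The means were 1197 ± 180 and 993 ± 121 (SD, n = 17 each), a log2 difference of -0.27 (SE 0.0739, 95% interval -0.42 to -0.12, edgeR adjusted p = 0.0491). Akr1a1 was the 1 of the 9 enzymes called at this stage, where 1.46% of 11004 genes were called and 0.872% were lower. Over 12 alternatives 7 kept the call, with adjusted p from 0.0153 to 0.409. With single litters left out, 4 of 19 fits kept it (0.0271 to 0.182). It was lost when counts were summed per litter (-0.25, edgeR adjusted p = 0.409) and when litter was a random block (-0.26, limma adjusted p = 0.221).

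At 7 to 9 somite pairs the direction in embryos was the opposite. Akr1a1 was 802 to 1079 normalized counts in the normal group (median 873) and 763 to 1342 in the diabetic group (median 1057), and 8 of the 16 diabetic embryos lay above the highest normal one. The means were 899 ± 92.4 and 1055 ± 162 (SD, n = 16 each), a log2 difference of 0.23 (SE 0.0709, 95% interval 0.08 to 0.37, edgeR adjusted p = 0.0391). Khk, the ketohexokinase, was 4.96 to 17.5 in the normal group (median 10.6) and 10.4 to 27.6 in the diabetic group (median 13.9). Of the diabetic embryos 15 of 16 lay above the normal median, and 8 of the 16 normal embryos lay below the lowest diabetic one. The Khk means were 10.6 ± 3.84 and 15.98 ± 5.23 (SD, n = 16 each), a log2 difference of 0.57 (SE 0.171, 95% interval 0.23 to 0.92, edgeR adjusted p = 0.0312), on 6 to 31 UMI counts per library. These 2 of 9 enzymes were called where 9.09% of 10628 genes were called, 5.2% higher and 3.89% lower. The Akr1a1 call was kept in 7 of 13 alternatives (adjusted p 0.0182 to 0.129) and in 5 of 13 fits without a litter (0.0136 to 0.0876). That of Khk was kept in 9 of 13 alternatives (0.0124 to 0.110) and in 9 of 13 fits without a litter (0.0239 to 0.0933). Both calls were lost under the litter block (Akr1a1 0.24, limma adjusted p = 0.0855, and Khk 0.62, adjusted p = 0.0660) and in litter sums (0.28, edgeR adjusted p = 0.129, and 0.63, adjusted p = 0.110). Without the litter D28M36 the Khk difference was 0.47 (adjusted p = 0.0933), and without the litter that gave 7 concepti it was 0.76 (adjusted p = 0.0239).

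The other 7 enzymes did not pass in embryos at 7 to 9 somite pairs. Sord was 5.90 to 19.8 normalized counts in the normal group (median 10.1) and 7.12 to 46.1 in the diabetic group (median 14.6), with a log2 difference of 0.56 (SE 0.228, edgeR adjusted p = 0.110). The highest value rested on 56 UMI counts in a library whose duplicate gave 24, and with duplicate libraries in place of their originals the difference was 0.39 (adjusted p = 0.191). Summed visceral endoderm markers were 61.8 to 1466 CPM in these diabetic embryos (median 238) and 41.3 to 646 CPM in the normal ones (median 193), and none of the 8 markers tested was called, with a median log2 difference of 0.52. Primitive erythroid markers summed to 15.9 to 2049 CPM (median 99.6) and 8.57 to 703 CPM (median 81.6), with 0 of 3 tested called and a median log2 difference of 1.23. Within conditions, the 2 enzymes called at this stage correlated with the visceral endoderm markers at r = 0.44 (Akr1a1) and 0.32 (Khk) over 32 embryos. The part of these cell types in the embryo differences was not tested.

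Gfpt1 was 178 to 344 normalized counts in normal embryos (median 279) and 96.0 to 338 in diabetic embryos (median 233), with 5 of 16 diabetic embryos below the lowest normal one and a log2 difference of -0.32 (SE 0.124, edgeR adjusted p = 0.0907). This difference passed without the litter of 7 concepti (-0.49, adjusted p = 0.0331). Ogt was 158 to 375 (median 246) and 215 to 365 (median 291), with a log2 difference of 0.19 (SE 0.0867, adjusted p = 0.147). Akr1b3 at -0.27 (adjusted p = 0.298), Gnpnat1 at -0.22 (0.328), Uap1 at -0.21 (0.437) and Pgm3 at -0.05 (0.817) had intervals that include 0. At 5 or 6 somite pairs the log2 differences of the 8 enzymes that were not called lay between -0.16 (Gfpt1, 95% interval -0.37 to 0.04) and 0.18 (Khk, interval -0.09 to 0.44). Khk at that stage was 19.6 ± 5.13 in normal and 22.7 ± 5.84 in diabetic embryos (SD, n = 17 each).

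A few diabetic embryos were low in both Uap1 and Gfpt1. In all, 5 diabetic embryos at 7 to 9 somite pairs, from 4 litters, had less Uap1 than the lowest of the 16 normal embryos (23.7 to 81.7 against 94.6 and above). In these 5 embryos Gfpt1 was 96.0 to 177, Gnpnat1 19.7 to 58.9, Pgm3 38.5 to 61.6 and Ogt 261 to 314 normalized counts. Gfpt1 lay below the lowest normal embryo (178) in all 5, whereas Gnpnat1 reached into the normal range (38.9 to 96.2), Pgm3 lay within it (36.4 to 85.7) and Ogt lay above the normal median (246). Their Akr1a1 was 1087 to 1342 and their Khk 13.9 to 27.6. They were picked by their Uap1 value, and the figures are a description without a test. The embryo with the least Uap1 (conceptus D28M36C, 18 UMI counts) also had the yolk sac with the least Uap1 at its stage. That yolk sac was at 30.1 on 10 UMI counts, against 90.3 or more in the normal group. It was also the lowest of the diabetic yolk sacs at that stage in Akr1a1 (671), Gnpnat1 (42.1) and Pgm3 (117), so its low value was not particular to Uap1. Without that conceptus the differences at 7 to 9 somite pairs were 0.51 for Khk (edgeR adjusted p = 0.0556) and 0.22 for Akr1a1 (adjusted p = 0.0578).

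In yolk sacs no enzyme was called between conditions. At 5 or 6 somite pairs 0% of 10250 genes were called by edgeR, with 863 at an unadjusted p under 0.05 and 1 called by DESeq2, and at 7 to 9 somite pairs 0.0194% of 10317 genes were called. Of the 8 enzymes tested, Sord was 178 to 262 normalized counts in the normal group (median 232) and 110 to 312 in the diabetic group (median 196) at the earlier stage, with 6 of 17 diabetic yolk sacs below the lowest normal one and a log2 difference of -0.20 (95% interval -0.41 to 0.00, edgeR adjusted p = 0.594). Ogt was higher by 0.17 at that stage (interval 0.01 to 0.33, adjusted p = 0.573) and Akr1a1 was at -0.14 (interval -0.29 to 0.02, adjusted p = 0.635). At the later stage the log2 differences lay between -0.27 (Khk, interval -0.68 to 0.14) and 0.08 (Akr1a1, interval -0.11 to 0.26), and that of Pgm3 was -0.15 (interval -0.31 to 0.01, adjusted p = 0.499). For Akr1a1 these intervals include the differences found in embryos of the same stage. The diabetes effect did not differ between tissues by the interaction test for any enzyme, with 0% and 0.389% of genes called at the 2 stages (895 genes at an unadjusted p under 0.05 at the earlier stage and 0 called by DESeq2). Khk came nearest at 7 to 9 somite pairs, at -0.84 (95% interval -1.38 to -0.30, adjusted p = 0.0933).

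**Figure D4:**
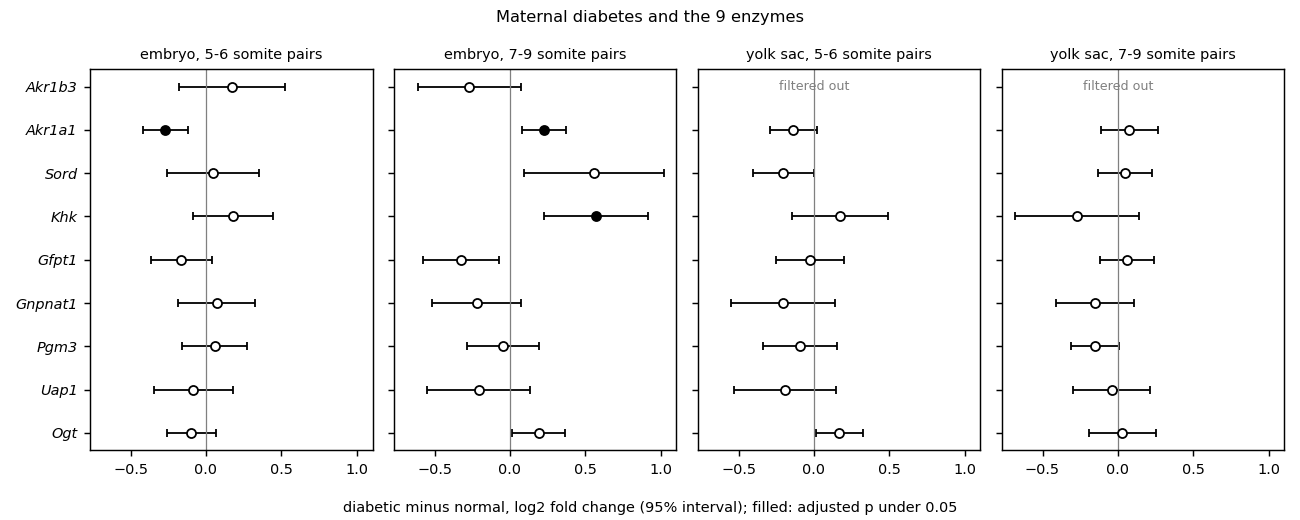
Log2 fold change of diabetic minus normal (horizontal axis, points with 95% intervals) for each enzyme, in 1 panel per tissue and stage; filled points passed an adjusted p of 0.05. Akr1a1 is filled at -0.27 in embryos at 5 or 6 somite pairs and at 0.23 at 7 to 9, Khk is filled at 0.57 in the latter, and no yolk sac point is filled.

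The difference between the embryo stages in the effect of diabetes was itself tested. For Akr1a1 the effect at 7 to 9 somite pairs exceeded that at 5 or 6 by a log2 value of 0.51 (SE 0.101, 95% interval 0.31 to 0.71, edgeR adjusted p = 0.00510), in a test that called 8.7% of 11304 genes. The value was 0.48 to 0.58 and called in each of 22 fits that left out 1 litter (adjusted p 0.00190 to 0.0160). It was 0.53 with litter as a random block (limma adjusted p = 0.00360), where 1298 of 11304 genes were called, more than in the main fit. With counts summed per litter it was 0.54 (edgeR adjusted p = 0.135, where 1 of 12676 genes was called). No other enzyme passed, with Ogt at 0.30 (adjusted p = 0.0851), Khk at 0.41 (0.189), Sord at 0.53 (0.193) and Akr1b3 at -0.43 (0.242). In the yolk sac the corresponding value for Akr1a1 was 0.22 (95% interval -0.02 to 0.45, adjusted p = 0.864), where 0% of 10857 genes were called by edgeR or DESeq2, with 634 at an unadjusted p under 0.05 in edgeR.

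Some neighbours in these routes were called in embryos as well. Aldoa, a glycolytic aldolase, was higher in diabetic embryos at 7 to 9 somite pairs by 0.38 (edgeR adjusted p = 0.00416), glucose-6-phosphate isomerase Gpi1 by 0.51 (adjusted p = 0.00266) and Pfkl by 0.36 (adjusted p = 0.0178). That is 1 of 6 polyol and fructose neighbours and 2 of 6 genes of glucose entry, with none lower, where 9.09% of all genes were called and 5.2% were higher. With litter as a random block Aldoa (limma adjusted p = 0.0203) and Gpi1 (0.0167) were called and Pfkl (0.0597) was not, and with counts summed per litter none of the 3 was (edgeR adjusted p = 0.0722, 0.0663 and 0.188). Nans, which makes N-acetylneuraminate phosphate from the hexosamine route, was lower at 5 or 6 somite pairs by a log2 difference of -0.26 (adjusted p = 0.0462) and higher at 7 to 9 by 0.25 (adjusted p = 0.0395), the 1 of 11 hexosamine neighbours called at either stage. Neither Nans call was kept with litter as a random block (limma adjusted p = 0.243 and 0.0861) or with summed counts (edgeR adjusted p = 0.458 and 0.187). In the test of unequal effect at the 2 stages, Nans (0.53), Aldoa (0.46), Gpi1 (0.48), Pfkl (0.55), Hk1 (0.68) and the users of UDP-GlcNAc Dpagt1 (0.45), Alg14 (0.44) and Mgat1 (0.42) were called, each in the same direction as Akr1a1. These are 1 of 11 hexosamine neighbours, 1 of 7 polyol and fructose neighbours, 3 of 6 genes of glucose entry and 3 of 17 users of UDP-GlcNAc, where 8.7% of all genes were called and 4.35% were higher. With litter as a random block 7 of these 8 were called, Alg14 being the exception (limma adjusted p = 0.0849), where 1298 of 11304 genes were called in all. With counts summed per litter none of the 8 was called (edgeR adjusted p 0.135 to 0.287), where 1 of 12676 genes was called in all and every one of the 8 kept its direction. No user of UDP-GlcNAc was called between conditions in embryos at either stage (17 tested). Arrdc4, a relative of Txnip whose transcription responds to sugar supply, was higher at 7 to 9 somite pairs by 0.84 (adjusted p = 3.81e-04, 0.0100 under the litter block and 0.0505 in litter sums), and Txnip was at 0.20 (adjusted p = 0.715). In yolk sacs no gene of these lists was called.

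**Figure D5:**
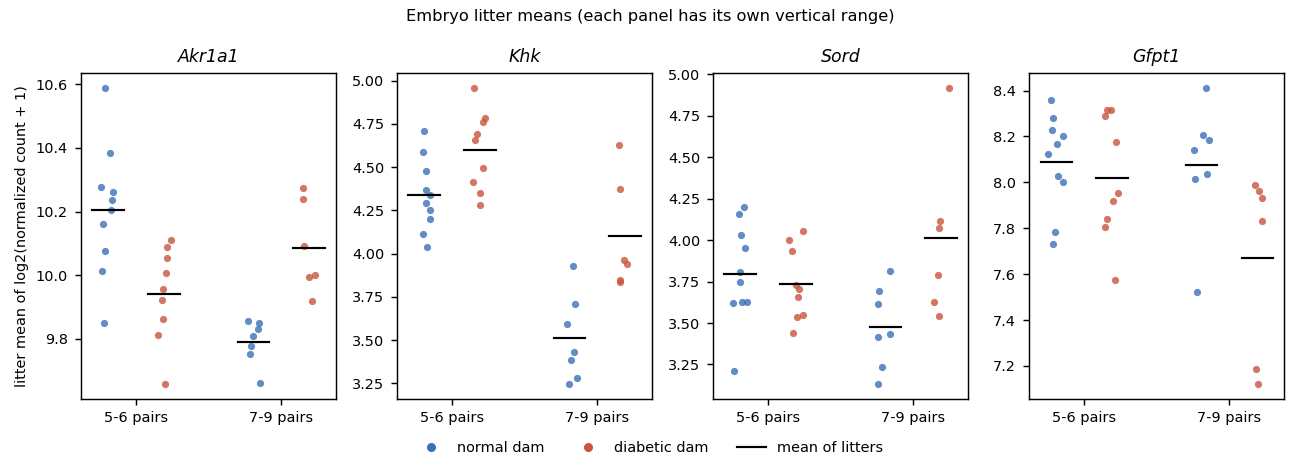
Litter means of log2(normalized count + 1) in embryos (vertical axis, each panel with its own range) for Akr1a1, Khk, Sord and Gfpt1, by stage on the horizontal axis and by maternal condition (blue normal, red diabetic), with bars at the mean of litters. All 9 diabetic litters lie below the normal median for Akr1a1 at 5 or 6 somite pairs, and all 6 lie above it at 7 to 9.

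With litters as the unit, the direction of the called differences was the same. For Akr1a1, 9 of 9 diabetic litters lay below the normal median at 5 or 6 somite pairs (difference of litter means -0.26 on the log2 scale, two-sided exact permutation p = 0.00445, 9 against 10 litters), and 6 of 6 lay above it at 7 to 9 (0.30, exact p = 5.83e-04, 6 against 7 litters). For Khk, 8 of 9 diabetic litters lay above the normal median at the earlier stage (0.26, exact p = 0.0187) and 6 of 6 at the later (0.59, exact p = 0.00350). For Sord 6 of 6 lay above at the later stage in embryos (0.53, exact p = 0.0157), and for Pgm3 6 of 6 lay below at the later stage in yolk sacs (-0.25, exact p = 0.00991). These are 6 of 36 such tests with an exact p under 0.05, without correction. The exact test was not run over all genes. With counts summed per litter, edgeR's unadjusted p was under 0.05 for 1224 of 11706 and 2045 of 12064 genes in embryos at the 2 stages. In yolk sacs it was so for 474 of 11038 and 803 of 11540. Equally one-sided litter counts had an exact p above 0.05 for Gfpt1 (0.0647) and Ogt (0.0915) in embryos at the later stage. In yolk sacs at the earlier stage the same held for Akr1a1 (0.125) and Ogt (0.0762). When each litter was fitted as a random block, or its counts were summed, in a fit across all genes, 0 of the 9 enzymes were called in embryos at either stage, with 4 and 314 genes called in all under the block and 0 and 8 under the sums.

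Maternal glucose itself showed no relation that held after correction. Over 11 diabetic litters with a numeric reading, 18 relations were computed (9 enzymes in 2 tissues), and none had an adjusted p under 0.05. The strongest was Gnpnat1 in the yolk sac (Pearson r = -0.69, permutation p = 0.0154, adjusted p = 0.277; Spearman rho = -0.78, permutation p = 0.00652, adjusted p = 0.117), with r = -0.63 without the 2 litters farthest from the median glucose. Within stages its r was -0.73 (8 litters at 5 or 6 somite pairs, permutation p = 0.0319, adjusted p = 0.494) and -0.67 (6 litters at 7 to 9, permutation p = 0.138). By Pearson's r, Akr1b3 in embryos followed (r = -0.61, permutation p = 0.0463, adjusted p = 0.336; rho = -0.61, permutation p = 0.0519), with r = -0.73 without the 2 farthest litters and -0.72 within 6 litters at 7 to 9 somite pairs. By Spearman's rho, Pgm3 in the yolk sac came second (rho = -0.67, permutation p = 0.0271, adjusted p = 0.244, with r = -0.59, permutation p = 0.0570, adjusted p = 0.336), with r = -0.50 without the 2 farthest litters, -0.57 within 8 litters at 5 or 6 somite pairs and -0.91 within 6 litters at 7 to 9 (permutation p = 0.0142, adjusted p = 0.255). With the reading above the scale set to 600 mg/dl, over 12 litters, r was -0.57 for Gnpnat1 (permutation p = 0.0501), -0.53 for Pgm3 (0.0782) and -0.52 for Akr1b3 (0.0865).

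Sex of the conceptus was examined because Ogt is X-linked. Ogt was 328 ± 90.8 normalized counts in female embryos (SD, n = 29) and 350.3 ± 57.8 in male embryos (SD, n = 37), and 208 ± 47.2 and 218 ± 55.0 in yolk sacs. The log2 difference of female minus male was -0.10 in embryos (95% interval -0.22 to 0.02) and -0.00 in yolk sacs (interval -0.14 to 0.13). No enzyme was called, where 0.125% of genes were called in embryos (0.0753% higher and 0.0502% lower in females) and 0.165% in yolk sacs (0.0953% higher and 0.0693% lower). The nearest was Sord in yolk sacs, at 0.15 (interval 0.02 to 0.28, unadjusted p = 0.0265 and adjusted p = 0.9997 from edgeR).

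Across libraries the 3 enzymes from glucosamine 6-phosphate to UDP-GlcNAc varied together. After removal of the group means, the log2 levels of Gnpnat1 and Uap1 correlated with Pearson r = 0.81 over 66 embryos and 0.82 over 66 yolk sacs, Gnpnat1 and Pgm3 with 0.60 and 0.71, and Pgm3 and Uap1 with 0.59 and 0.58. Gfpt1 correlated with Uap1 at 0.70 in embryos and 0.42 in yolk sacs, with Gnpnat1 at 0.48 and 0.16 and with Pgm3 at 0.42 and 0.19. Ogt correlated with these 4 at -0.23 to -0.02 in embryos and -0.41 to -0.02 in yolk sacs. On the polyol side Sord and Khk correlated at 0.26 and 0.30, and Akr1b3 and Akr1a1 at -0.26 and -0.12. Each of the 3 enzymes correlated more closely with genes outside the set, such as Uap1 with Mis18a at 0.94 in both tissues. The share of all genes with values as high was not computed, so these correlations do not set the route apart. The libraries share preparation, depth and dams within litters, so these values are descriptions without a test.

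The genes with the most similar course, by the same measure and among 6808 genes in embryos and 6447 in yolk sacs, were in part the same in both tissues. Uap1 was closest to Mis18a in both (r = 0.94 and 0.94), and Gnpnat1 was closest to Mad2l1 in both (0.91 and 0.94). For Gfpt1 the closest genes were Sde2 in embryos (0.86) and Sec24a in yolk sacs (0.80), for Pgm3 Cst3 (0.81) and Sec23a (0.82), and for Akr1a1 Lcmt1 (0.76) and Map1lc3b (0.81). Sord was closest to Apoe in embryos (0.57) and to Gstm1 in yolk sacs (0.67), followed there by Fxyd2 (0.66) and the apolipoprotein gene Apoa4 (0.65). Khk was closest to Mrps9 (0.56) and Vamp8 (0.63), Ogt to Slc16a3 (0.54) and Nars (0.58), and Akr1b3 to Gm43359 (0.44) and Smpd4 (0.49).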

How the data were processed

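The data were 3′ mRNA tag sequencing (QuantSeq forward kit with UMIs) of 66 embryos and their 66 yolk sacs. The authors deposited raw UMI counts per Ensembl gene, made, per the labels, with STAR and HTSeq on mm10. Versions and the strand and multiple-mapping settings of counting are not given in the sources used here. Of 136 libraries, 4 duplicates were left out of the main comparisons, and 0 columns of samples stayed unused otherwise. Totals of 1017901 to 5757211 counts limit the precision of scarce transcripts, and statements on scarce genes cover few counts.

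Groups came from the labels, and yolk sacs took the somite number of their conceptus. Counts were tested with edgeR 4.0.16 (quasi-likelihood, TMM, filterByExpr with a minimum count of 10, Benjamini-Hochberg over all genes tested, threshold 0.05) in R 4.3.3, with DESeq2 1.42.0 and limma 3.58.1 for alternatives. The steps were tested on simulated data, where the share of calls that fell on unchanged genes was near the threshold between conditions and above it between tissues. Simulated libraries were drawn independently, without a litter effect. The data had litter correlations of 0.0992 to 0.251 between conditions, so that share does not carry over to the calls over concepti. Exact and permutation tests (100000 resamples where not exact) used litter means of log2(normalized count + 1). They were computed with numpy 2.4.6, with ranks from scipy 1.17.1. Alternatives were normalization, the filter, litter sums, litter blocks, covariates, the first number of the sample titles, and single litters left out. Litter fits of the diabetes by stage test and of list genes, duplicates in place of originals and the omission of conceptus D28M36C were added after seeing the data.

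All 9 members are named. Of other list genes, those called between conditions and up to 3 with the largest difference between tissues or stages are named, as are the genes most like each member (mean count of at least 50). The members and lists were chosen with earlier results of these data known. Embryo and yolk sac of a number come from the same conceptus. The median correlation of their deviations from the group means over 6774 genes was 0.12 at 5 or 6 somite pairs (over 0.1 in 19 of 34) and 0.06 at 7 to 9 (15 of 32). The sex labels of embryo and yolk sac were unequal in 2 concepti, and 0 libraries went against their own label by Xist and Y-linked genes. A list gene that the naming rule selects is not reported here by name. Akr1b7 had no counts, and Oga is listed as Mgea5.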

Additional observations from a re-analysis of the deposited data

Results flagged for a closer look

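The effect of maternal diabetes on Akr1a1 in embryos differed between stages by a test of the difference itself. The effect at 7 to 9 somite pairs minus that at 5 or 6 was 0.51 on the log2 scale (SE 0.101, edgeR adjusted p = 0.00510), with 8.7% of 11304 genes called by the same test. With counts summed per litter it was 0.54 (adjusted p = 0.135, with 1 of 12676 genes called). Akr1a1 was lower in the diabetic group at the earlier stage in 9 of 9 litters relative to the normal median, and higher in 6 of 6 litters at the later stage. Groups of 16 or 17 libraries were too large for the single-sample outlier test.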

How the results depend on the processing

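The number of enzymes called between conditions in embryos at 5 or 6 somite pairs (1) was 0 with RLE normalization, without the filter, with litter sums, under a random litter block and with somite number and sex as covariates, and 0 to 1 with single litters left out. At 7 to 9 (2) it was 1 on total counts, 0 without the filter, with litter sums, with the litter block and without conceptus D28M36C, and 0 to 3 with single litters left out. Between stages in yolk sacs (4) it was 2 with litter sums and in normal litters only, and 2 to 5 with litters left out, and in embryos (4) 4 to 7. For the diabetes by stage test in embryos (1) it was 0 with litter sums and 1 to 2 with litters left out. The cause was not tested. Over all genes, calls in embryos at 5 or 6 somite pairs (161) were 397 with DESeq2, 291 without the filter, 257 on total counts, 0 with litter sums (1224 at an unadjusted p under 0.05), 4 with the litter block, 92 with somite and sex, 324 with the title number and 464 in a fit of all 8 groups. At 7 to 9 (966) they were 8, 314 and 1714 with sums, block and title number. In yolk sacs they were 0 to 5 and 0 to 25, between tissues 14068 and 14581 without the filter (9243 and 9413), between stages 1727 with sums and 1615 in normal litters for embryos (3484) and 785 in normal litters for yolk sacs (4342), for diabetes by tissue at 7 to 9 (45) 219 with DESeq2 and 22 without the filter, for diabetes by stage (984) 438 without the filter and 1 with sums, and for sex in yolk sacs (19) 7 with a fixed litter block.

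No uncalled value that changed sign was called under the alternative. Signs turned with litter sums for Sord (-0.043) and Uap1 (0.11) in embryos at 5 or 6 somite pairs, and for Sord (-0.0038) and Uap1 (0.016) in yolk sacs at 7 to 9. They turned with the random litter block for Sord in embryos at 5 or 6 (-0.014) and Gfpt1 in yolk sacs at 5 or 6 (0.0074), and on total counts for Gfpt1 there (0.0087), Uap1 in yolk sacs at 7 to 9 (9.8e-05) and Uap1 between tissues (-0.14). Between stages they turned in normal litters for Akr1a1 (-0.15 in embryos, -0.071 in yolk sacs) and Khk in yolk sacs (0.11), and in diabetic litters for Akr1b3 in embryos (-0.034). The RLE value of diabetes by tissue for Khk at 5 or 6 was -0.0056. With the replicate block of the conceptus, which pairs the tissues, Akr1b3 in the stage by tissue test was -0.0044, and that block changed no call of an enzyme between tissues. Female minus male turned in embryos for Gnpnat1 (0.034 with a random, 0.058 with a fixed litter block) and, with the fixed block, for Akr1a1 (-0.097), Khk (-0.095), Gfpt1 (0.043) and Uap1 (0.026), and in yolk sacs for Khk (-0.050) and Gfpt1 (0.11). Ogt there was 0.0030 with RLE, 0.0034 with the random block and 0.0089 without the 2 concepti of unequal sex labels.

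With single litters left out, ranges that crossed 0 were, in embryos at 5 or 6 somite pairs, -0.0024 to 0.25 (Akr1b3), -0.0051 to 0.16 (Gnpnat1), -0.023 to 0.12 (Pgm3), -0.039 to 0.10 (Sord) and -0.13 to 0.031 (Uap1), and at 7 to 9 -0.12 to 0.025 (Pgm3). In yolk sacs at 5 or 6 they were -0.066 to 0.029 (Gfpt1) and -0.26 to 0.015 (Uap1), and at 7 to 9 -0.042 to 0.14 (Gfpt1), -0.019 to 0.14 (Ogt), -0.0038 to 0.10 (Sord) and -0.075 to 0.020 (Uap1). Khk between stages in yolk sacs was -0.17 to 0.034 and Uap1 between tissues at 5 or 6 -0.036 to 0.11. Depth limits Akr1b3, Khk and embryo Sord most, and near-identical copies may limit the counts of Akr1b3 as well.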
